A study of Mus musculus with 12 samples.

Results

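CD138-positive B cells that had divided at least 8 times after transfer and challenge with LPS (Div8pos) were compared with undivided B cells recovered from the same host animals (Div0), over all CpGs covered in common. The comparison used 4 of the 12 methylation libraries of the series, with 2 libraries in each group and every library from 1 of 2 host mice, numbered 196 and 197. Per the series description, B220+ CD43- splenic B cells of naive C57/BL6J donors were stained with CFSE or CTV, dyes that daughter cells share out as they divide, and were injected into uMT mice, which lack mature B cells of their own and keep their other blood lineages. After a night of rest the hosts received LPS (lipopolysaccharide, a bacterial product that drives B cells to divide and secrete antibody), and on day 3 donor cells were sorted from the spleen by division. The labels of all 4 libraries give female, 8 weeks of age and the strain B6.SJL-Ptprca Pepcb/BoyJ. This strain differs from the donor strain in the series description. The sources used here do not say which animal the labels describe or whether donors were pooled. The CpGs covered in common include 81 on chromosome Y and 621 on Y sequence without a fixed position (Y_random). Whether the sorted cells were female was not tested. Both groups had been transferred and exposed to LPS, so Div0 is not an untreated control.

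DNA methylation sits mainly on the cytosine of CpG pairs and is copied to the new strand after replication by the methyltransferase Dnmt1, so it can be diluted over divisions when copying lags, and it can also be removed by Tet enzymes. CD138 is syndecan-1, encoded by Sdc1, and marks antibody-secreting plasmablasts and plasma cells. Blimp-1 (Prdm1) and Irf4 are the transcription factors that drive this fate. In reduced representation bisulfite sequencing, DNA is cut at CpG-containing sites and unmethylated cytosines are converted, so the methylation level of a CpG is the percentage of its reads that kept the cytosine.

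Each library covered the same 760348 CpGs at 10 or more reads. The Div0 libraries held 17969105 (host 196) and 45423158 (host 197) reads over these CpGs, with medians of 20 and 52 reads per CpG. The Div8pos libraries held 25913656 and 48301109 reads, with medians of 30 and 55. Host 197 was therefore more deeply sequenced in both groups, and its levels carry less counting error. Expression was not part of these files, and the CpGs within 500 bp of the Sdc1 start site were unmethylated in both groups (highest mean level 5.56% at Div0 and 3.67% at Div8pos), so the CD138 sort could not be checked here.

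Methylation was lower at Div8pos in both hosts. The mean level over all CpGs was 56.2% and 55.9% in the Div0 libraries and 50.2% and 49.6% in the Div8pos libraries. Both Div8pos libraries lay below both Div0 libraries, with differences of -5.97 points in host 196 and -6.26 points in host 197 (mean -6.11 ± 0.207, SD, n = 2). Weighting CpGs by their reads gave a larger fall, with a mean difference of -8.49 points. The share of CpGs at 80% or more was 51.96% and 52.3% at Div0 and 40.4% and 39.8% at Div8pos. The share between 20% and 80% was 9.85% and 9.12% at Div0 and 20.3% and 20.7% at Div8pos. The share under 20% moved little, from 38.2% and 38.6% to 39.3% and 39.5%, so most of the lost high levels reappeared as intermediate levels.

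In a quasi-binomial test of each CpG, 50284 CpGs (6.61% of those tested) were lower at Div8pos, with a Benjamini-Hochberg adjusted p under 0.05 and a fall of at least 20 points, and 206 (0.0271%) were higher. A fall of this size needs at least 20% methylation at Div0, and the lower CpGs made up 10.8% of the 466993 CpGs at or above that level. Their median level was 92.5% at Div0 and 63.4% at Div8pos, and the median difference was -28.6 points in host 196 and -26.5 points in host 197. Both Div8pos libraries were below both Div0 libraries at 50147 of them (99.7%), beside 43.7% of all CpGs, which is partly what the call rule selects. The counts rest on the deeper host: without the Div0 library of host 197, 14345 CpGs were lower and 53 higher, and without the Div8pos library of host 197, 33129 were lower. The test used 1 dispersion for all CpGs (1.16), so its p-values do not reflect how far the 2 hosts differed at a given CpG. With a dispersion estimated from each CpG alone no CpG passed in either direction, although 135573 had an unadjusted p under 0.05, and edgeR called 35949 lower and 58 higher.

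Calls made in one host were then read in the other. Fisher's exact test within host 196 alone gave 5449 lower CpGs, of which 99.4% were also lower in host 197 and 84.2% by more than 20 points, against 8.71% of all CpGs and 14.1% of CpGs at 20% or more at Div0. Their median difference was -53.3 points in host 196, where they were chosen, and -41.1 points in host 197. In the other direction, 43757 CpGs lower in host 197 were lower in host 196 in 93.9% of cases and past 20 points in 53.1%, against 10.5% of all CpGs and 16.9% of those at 20% or more. The higher calls carried over less: 29 CpGs higher in host 196 were higher in host 197 in 48.3% of cases, and 182 higher in host 197 were higher in host 196 in 63.7%. Of the 29, 10.3% rose by at least 20 points in host 197, against 0.135% of all CpGs. Of the 182, 19.8% rose by at least 20 points in host 196, against 0.629%.

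The size of the fall depended on the level before division. CpGs were binned by the Div0 level of one host and their change was read in the other, so that the same reads did not set both. For bins set in host 196, the mean difference in host 197 was -0.156 points at CpGs of 0 to 5%, -4.42 points at 20 to 40% and -10.3 points at 40 to 60%. It was -14.4 points at 60 to 80%, -13.4 points at 80 to 90% and -8.66 points at 95 to 100%. The reverse reading gave -14.6 points at 60 to 80% and -7.74 points at 95 to 100%. The fall in points was thus greatest at CpGs between 60% and 90%, and the most fully methylated CpGs kept 91.0% and 92.0% of their level.

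**Figure D1:**
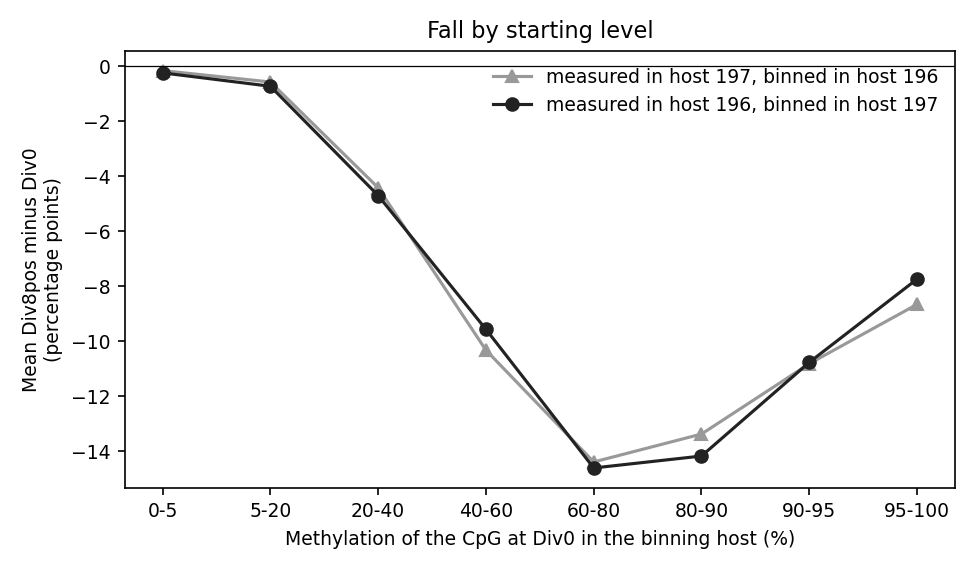
Mean difference in methylation between Div8pos and Div0 (y axis, percentage points) for CpGs binned by their Div0 level in one host (x axis, %) and measured in the other, with 1 line per measured host. Both lines stay near 0 below 20%, reach -14.4 and -14.6 points at 60 to 80%, and return to -8.66 and -7.74 points at 95 to 100%.

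Loss was mostly partial. Without any test, 382826 CpGs were at 80% or more in both Div0 libraries, and their median level at Div8pos was 88.9% in host 196 and 88.1% in host 197. Of these, 69.2% stayed at 80% or more in both Div8pos libraries, 11.7% were between 50% and 80% in both, 0.638% (2444 CpGs) were under 50% in both, and 0.120% (459 CpGs) were under 20% in both. The level had a negative difference in both hosts at 73.4% of them, a share that the choice by the same Div0 reads raises. For CpGs at 80% or more at Div0 in host 196, the median in host 197 was 96.4% at Div0 and 87.7% at Div8pos. The reverse choice gave 96.8% and 88.5% in host 196. The median fall at such CpGs was thus shallow, and near-complete loss was rare.

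Among CpGs at 80% or more at Div0, 40480 (10.2%) were called lower. Of these, 29071 (71.8%) ended between 60% and 80% at Div8pos, 9140 (22.6%) between 40% and 60%, 1542 (3.81%) between 20% and 40%, and 700 (1.73%) under 20%, a level called complete loss here. The median CpG of this set kept 72.1% of its Div0 level. A limit of 10% in place of 20% left 339 CpGs (0.837%). The share of complete loss depends on how many shallow falls a library can call: it was 6.61% without the Div0 library of host 197, 2.68% without the Div8pos library of host 197 and 19.4% when host 196 was tested alone, while the number of complete CpGs in those sets was 786, 772 and 846.

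CpGs kept the order of their depth of loss between the animals. The 846 CpGs that fell below 20% in host 196 had a median Div8pos level of 10.98% in host 197 (quartiles 5.26% and 20%), and 74.6% of them were under 20% there. The 720 CpGs that fell below 20% in host 197 had a median of 11.5% in host 196, and 76.2% were under 20%. CpGs classed as 20 to 40% in one host had medians of 37.0% and 37.5% in the other, those classed as 40 to 60% had 57.6% and 60%, and those classed as 60 to 80% had 74.4% and 76.9%. The shallowest class carried over least: of CpGs at 60 to 80% in host 197, 40.8% were at 80% or more in host 196, and 27.7% in the reverse reading. Whether an intermediate level reflects a share of the cells or 1 allele per cell cannot be told apart in bulk DNA.

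**Figure D2:**
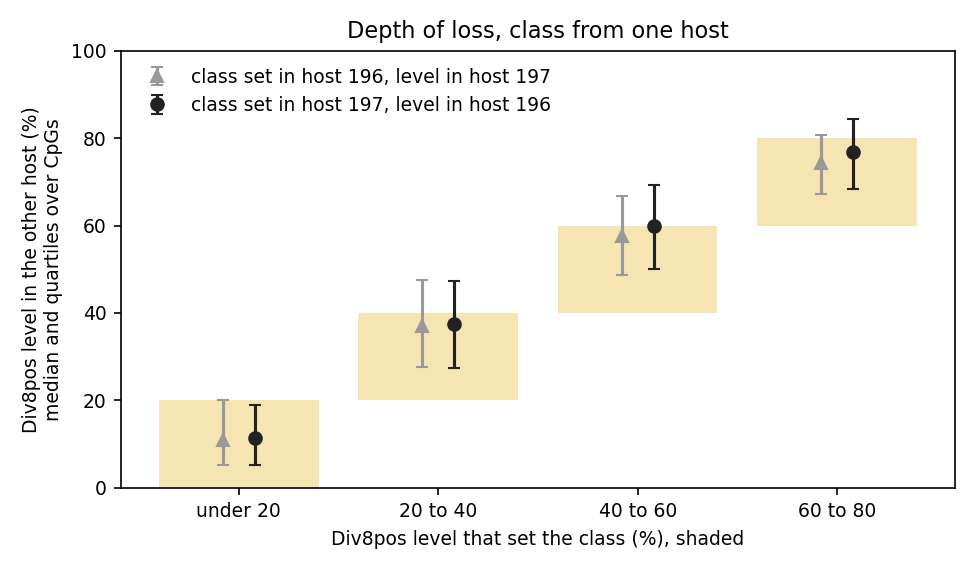
Div8pos methylation level (y axis, %) in one host for CpGs whose depth of loss was classed in the other host (x axis; the shaded boxes show the class limits), with points for medians and bars for quartiles over CpGs. Medians of 10.98% and 11.5% for the class under 20% and 74.4% and 76.9% for the class of 60 to 80% keep the order of the classes in both directions.

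The CpGs with complete loss in one host could also be followed through the other sorted groups of the other host. In host 197, the class chosen in host 196 had a median of 87.1% at Div0, 84.7% after 1 division, 77.8% after 3 and 62.2% after 5 divisions (the Div1, Div3 and Div5 groups). The CD138-negative cells of division 8 (Div8neg) had 40%, and the Div8pos library had 10.98%. The class of 60 to 80% started at 95.1% and stood at 92.2% after 5 divisions, 85.5% in the CD138-negative and 74.4% in the CD138-positive cells. These classes were chosen by their Div8pos level in the other host, so the levels are a description.

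Lower CpGs lay near other lower CpGs. Among CpGs at 20% or more at Div0, 47.3% of the neighbours 1 to 10 bp from a lower CpG were also lower, beside 3.81% of all CpGs in pairs at that distance. The share was 24.7% beside 7.32% at 51 to 100 bp, 21.7% beside 7.22% at 201 to 500 bp, 15.6% beside 8.89% at 1 to 2 kb and 12.02% beside 11.2% at 50 to 100 kb. Neighbours within the length of a read share reads, and the excess remained in pairs of 51 to 500 bp, at 24.2% against 27.8% for all pairs within 500 bp. Taking lower CpGs from host 196 and their neighbours' change from host 197, where no read is shared, gave mean differences of -43.6 points at 1 to 10 bp, -26.4 points at 201 to 500 bp, -13.5 points at 2 to 5 kb and -11.1 points at 50 to 100 kb, beside -10.1 points for all such CpGs. The reverse reading, from the larger set of lower CpGs of host 197, gave smaller differences in host 196, of -22.2, -14.1, -11.05 and -10.3 points at these distances, beside -9.64 points. The closeness was therefore seen mainly within about 1000 bp, and most lower CpGs were not in dense groups: 37.3% had another lower CpG within 500 bp, and 19264 (38.3%) had none within 10 kb.

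**Figure D3:**
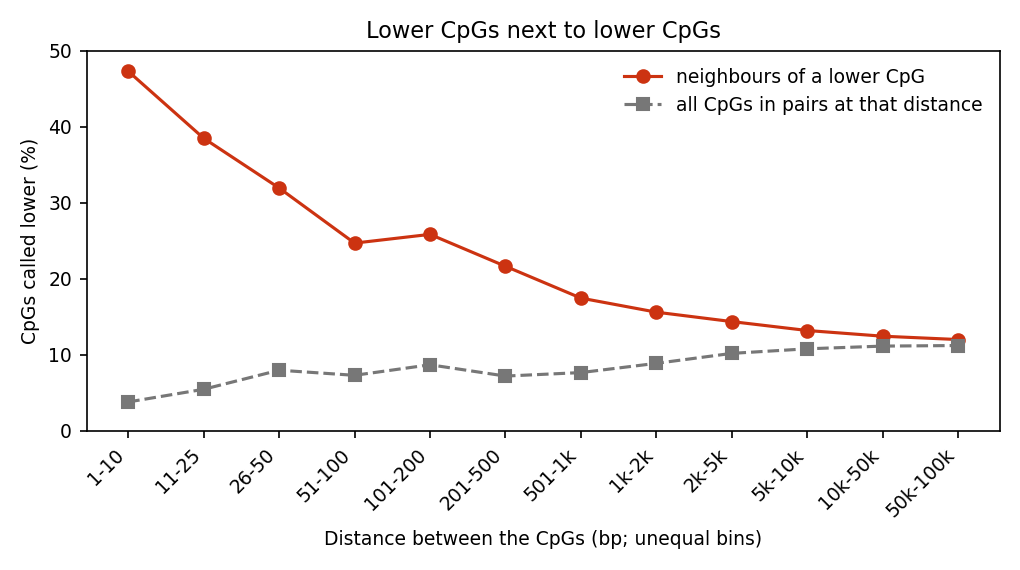
Share of CpGs called lower at Div8pos (y axis, %) among the neighbours of a lower CpG and among all CpGs in pairs at the same distance (x axis, bp, in bins of unequal width). The neighbours of lower CpGs start at 47.3% at 1 to 10 bp and come down to 12.02% at 50 to 100 kb, where all CpGs stand at 11.2%.

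Runs of at least 3 lower CpGs, each at most 500 bp from the next, gave 2032 lower regions that held 7697 lower CpGs (15.3% of them) near 1556 genes. The regions had a median length of 175 bp and reached 1800 bp, and 23 held 10 or more lower CpGs. Their median level was 87.7% at Div0 and 51.2% at Div8pos, and 1400 started at 80% or more. Of those 1400, 80 (5.71%) were under 20% at Div8pos, 245 were under 40% and 713 were still at 60% or more. Of the 700 CpGs with complete loss, 470 lay in such regions. Region counts also rest on the deeper host, with 683 lower regions without the Div0 library and 1235 without the Div8pos library of host 197, and on the size limit, with 7393 at 10 points and 821 at 30 points.

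Fixed tiles of 1 kb with at least 3 CpGs, tested with limma, gave 3478 lower tiles (3.84%) and 5 higher tiles (0.00552%) of 90564. The median of all tiles was -6.16 points, and 88.2% had a negative difference. The lower tiles had a median of 89.9% at Div0 and 61.6% at Div8pos, and of 2565 that started at 80% or more, 67 (2.61%) ended under 20%. Leaving out 1 library raised the number of higher tiles to 7 to 17, with 17 without either library of host 197.

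The number of other covered CpGs within 500 bp went with the size of the fall more than annotation class did. It counts covered CpGs only and is not the CpG density of the genome. Among CpGs at 20% or more at Div0, 18.3% were lower where no other covered CpG lay within 500 bp, 13.5% with 1 to 2, 9.12% with 3 to 5, 6.47% with 6 to 10, 4.80% with 11 to 20 and 3.72% with over 20. For CpGs at 80% or more in host 196, the mean difference in host 197 was -12.9 points with no other covered CpG nearby and -4.80 points with over 20, so the order held at like starting levels. By class, 13.0% of promoter, 12.3% of intronic, 10.8% of intergenic, 9.87% of 3′ UTR, 6.70% of 5′ UTR and 5.66% of exonic CpGs were lower. At over 1000 and up to 2500 bp from the nearest start site 13.7% were lower, against 7.62% within 250 bp. Among lower CpGs that started at 80% or more, complete loss made up 5.21% in 5′ UTRs (10 of 192 CpGs), 2.31% in 3′ UTRs and 2.21% in promoters. It made up 2.14% of intronic, 1.35% of intergenic and 1.09% of exonic ones. On chromosome X 7.03% were lower and on chromosome Y 4.55% (3 of 66 CpGs), beside 10.1% to 12.4% on the autosomes. The sex of the sorted cells was not tested.

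Loss reached every large stretch that could be measured. Of 1673 windows of 1 Mb with at least 100 CpGs at 20% or more at Div0, 1671 had a negative mean difference in host 196 and 1672 in host 197, and none was without a lower CpG. The share of lower CpGs per window had a median of 10.7%, with 5.94% and 16.2% as its 10th and 90th percentiles. It was highest, at 31.9%, in the window on chromosome 16 that holds Cd86, a costimulatory ligand of antigen-presenting B cells (36000001 to 37000000, mm9). Other windows among the highest were that of chromosome 13 with Irf4, Dusp22 and E2f3 (28.6%), chromosome 6 with Foxp1 (26.6%) and chromosome 7 with Swap70 (26.1%). Swap70 is a signalling adaptor of B cells. The lowest share of any window was 0.809%.

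The 12 regions with the lowest Div8pos level among those that started at 80% or more were picked by that level, so their values are a description. They held 3 to 6 lower CpGs each, within 9 to 391 bp. Both hosts reached a low level at each: the Div8pos libraries ranged from 0.741% to 6.16%. Coordinates are mm9, and the genes are the nearest ones in the deposited annotation.

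Near Prdm1, 6 CpGs between Prdm1 and the autophagy gene Atg5 (chr10:44120496-44120755, intergenic) stood at 92.7% and 96.0% in the Div0 libraries of hosts 196 and 197 and at 5.03% and 3.55% in the Div8pos libraries. The difference of -90.1 points left almost no methylation, and the CD138-negative cells of division 8 stood between, at 57.2% and 56.3%. An intronic region of Dusp22, a dual-specificity phosphatase, went from 96.5% and 90.8% to 2.08% and 2.30% (chr13:30781531-30781651).

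Both Pvt1 regions among these 12 lay in introns of this long noncoding RNA next to Myc. The first (chr15:61976566-61976956, 5 CpGs) was at 91.2% and 92.9% at Div0 and at 2.11% and 2.51% at Div8pos. The second (chr15:62021271-62021574, 6 CpGs) was at 93.0% and 92.7% and then at 6.16% and 3.00%. Pvt1 had 3 lower regions in all, and the remaining one kept 66.2% at Div8pos, a difference of -27.1 points. Pvt1 also held 12 of the CpGs with complete loss, the most of any nearest gene.

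An exonic region of Nfkbia (chr12:56591499-56591637), which encodes the inhibitor that holds NF-kB in the cytoplasm, had 92.2% and 90.2% at Div0 and 4.97% and 3.75% at Div8pos. In contrast with the Prdm1 interval, its level was already 34.8% in both Div5 libraries. The interval near Prdm1 was still at 91.7% and 91.6% at Div5, so the fully lost regions did not share 1 pattern over the division groups. All groups were sorted on day 3, so these are not time points. The Gimap4 region (chr6:48642843-48642925), next to a GTPase gene of lymphocytes, had 83.1% and 84.1% at Div0 and 4.56% and 4.67% at Div8pos. A promoter region of Susd3 (chr13:49344724-49344732) had 95.7% and 88.1% at Div0 and 4.23% and 1.92% at Div8pos.

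The other regions showed the same picture. A region at -7845 bp from the start site of Laptm5 (chr4:130461056-130461403), a lysosomal protein that limits B cell receptor levels, had 83.2% and 81.9% at Div0 and 3.98% and 5.01% at Div8pos. The 3′ UTR regions of Chd7, a chromatin remodeller, and Pck1, an enzyme of gluconeogenesis, had Div0 means of 84.4% and 86.6% and Div8pos means of 3.16% and 3.67%. The lowest levels of all were in 2 regions nearest to the gene model Gm14005 on chromosome 2, at 1.31% ± 0.804 and 1.70% ± 0.348 (SD, n = 2) from 82.6% ± 2.68 and 88.4% ± 5.89.

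**Figure D4:**
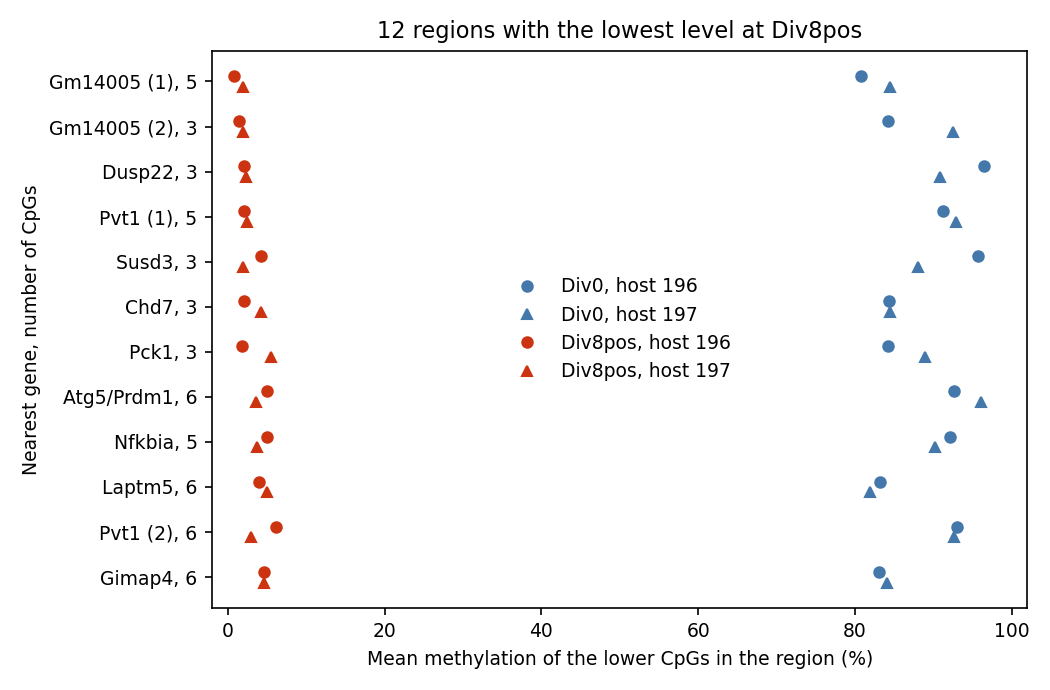
Mean methylation of the lower CpGs (x axis, %) in the 12 regions with the lowest Div8pos level (y axis, nearest gene and number of CpGs), with 1 point per library, coloured by group and shaped by host. The Div0 libraries sit between 80.7% and 96.5% and the Div8pos libraries between 0.741% and 6.16% in every region, as the choice of regions requires.

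Some genes had several separate lower regions. Foxp1, a forkhead repressor of plasma cell differentiation, had 7 regions over 491 kb, with Div8pos levels from 3.19% to 64.5%. Its region at chr6:99140880-99141156 went from 82.1% and 89.9% to 19.3% and 11.3%, while that at chr6:99384015-99384172 went from 95.5% and 97.3% to 62.6% and 66.3%. Partial and near-complete loss thus lay within the same gene, at similar levels in both hosts. Of the 169 CpGs nearest to Foxp1 with at least 20% at Div0, 30.8% were lower.

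Ptpn1, a tyrosine phosphatase that damps cytokine receptor signalling, had 5 lower regions, and its promoter region of 9 CpGs (chr2:167756769-167757165) went from 87.2% and 80.8% to 31.2% and 22.0%. Rassf3, Dtx1, Pced1b, Bmp2k, Cuedc1 and Kcnn4 had 4 each, and are named because theirs held the most lower CpGs. Gm14005, Sema4d, Ebf1, Rap1b, Hivep2, Ksr1, Sik1 and Ubac2 also had 4. Rassf3 (a Ras-association protein) ranged from 7.34% to 45.2% between its regions at Div8pos, and Bmp2k (a kinase) from 2.24% to 50.9%. Cuedc1 kept the most, with 51.2% to 80.9%, and at Kcnn4, a calcium-activated potassium channel of lymphocytes, 53.7% of 41 CpGs at 20% or more at Div0 were lower. Dtx1, a Notch regulator, had 56.4% of 55 such CpGs lower and Pced1b had 34 lower CpGs in all.

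Few promoters had lower CpGs next to the start site, where most CpGs were too low at Div0 to fall by 20 points. Within 250 bp of a start site, 8230 of 131572 CpGs had 20% or more at Div0. Of those 8230, 7.62% were lower, beside 10.8% of all CpGs at that level. A window from 250 bp before to 50 bp after a start site held a covered CpG at 8742 genes, at least 1 lower CpG at 228 and 3 or more at 19. Where the start was methylated, loss could be near complete: Fcgr2b, the inhibitory Fc receptor of B cells, had a mean of 74.0% ± 0.422 in undivided and 9.09% ± 3.76 in Div8pos cells (SD, n = 2), and Irak2, a kinase of Toll-like receptor signalling, from 69.6% ± 11.9 to 7.69% ± 0.336. The RefSeq promoter sequences (build GRCm38.p6) could be placed by their CpG spacing for 5 of the 19 genes. The 250 bases before the start site are shown for the 3 of these with the greatest fall, 5′ to 3′ on the gene's strand, with each CpG called lower in capitals. They show where the affected CpGs lie before the start site. The chemokine gene Ccl22 is chr8:94745434-94745683 (plus strand), the choline transporter gene Slc44a4 is chr17:34914216-34914465 (plus strand), and Ckm, muscle creatine kinase, is chr7:19410844-19411093 (plus strand).
Ccl22: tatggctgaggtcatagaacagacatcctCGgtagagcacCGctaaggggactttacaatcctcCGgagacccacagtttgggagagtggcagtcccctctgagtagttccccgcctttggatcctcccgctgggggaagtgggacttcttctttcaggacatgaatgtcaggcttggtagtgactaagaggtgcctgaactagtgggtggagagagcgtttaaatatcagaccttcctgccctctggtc
Slc44a4: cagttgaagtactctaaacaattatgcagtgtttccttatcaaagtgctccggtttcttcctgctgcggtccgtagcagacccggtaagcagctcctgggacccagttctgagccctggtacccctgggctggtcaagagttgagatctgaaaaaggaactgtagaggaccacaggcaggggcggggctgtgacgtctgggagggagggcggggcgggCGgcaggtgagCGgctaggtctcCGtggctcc
Ckm: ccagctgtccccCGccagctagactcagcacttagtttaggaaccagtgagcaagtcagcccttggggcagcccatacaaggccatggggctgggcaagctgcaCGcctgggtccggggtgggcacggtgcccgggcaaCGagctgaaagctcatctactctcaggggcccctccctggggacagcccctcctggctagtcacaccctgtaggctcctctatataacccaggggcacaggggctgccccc

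At Ccl22 the 3 lower CpGs are among 6 CpGs in these bases, and their mean level was 84.8% and 88.7% in the Div0 libraries and 40.2% and 47.0% in the Div8pos libraries. At positions -220, -209 and -185 from the start site the Div0 means were 76.0%, 84.3% and 100% and the Div8pos means 25.2%, 38.5% and 67.1%, so the fall was less toward the start site. At Slc44a4 the covered CpGs had 88.2% and 89.8% at Div0 and 54.4% and 58.9% at Div8pos, and 3 of 11 CpGs are in capitals. At Ckm they had 73.3% and 61.1%, then 42.9% and 39.7%. All 3 kept an intermediate level in both hosts.

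The genes that mark or drive the plasma cell fate differed in where they lost methylation. At Sdc1, which encodes CD138 itself, 3 of 43 covered CpGs were lower, all intergenic and 24056 to 46693 bp from the nearest start site, and none ended under 60%. At Prdm1, 21 of 90 CpGs were lower and 7 of them completely. Besides the interval toward Atg5, a region at -201286 bp from the start site (chr10:44449594-44449754) went from 98.7% and 96.5% to 37.5% and 36.9%, and within it single CpGs ended between 12.7% and 59.0%. The region over the 5′ UTR and an exon (chr10:44176517-44176655) went from 77.3% and 77.0% to 43.4% and 50.0%, a difference of -30.4 points.

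At Irf4, all 6 CpGs with 20% or more at Div0, of 23 covered, were lower. A promoter region at -2263 bp (chr13:30838716-30838863) went from 95.4% and 88.1% to 38.4% and 42.9%. The CpG at -1367 bp had 32% and 29.9% at Div0 and no methylated read among 45 and 68 at Div8pos. Closer to the start site, the 10 CpGs within 500 bp were already at 6.17% or less at Div0.

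For each gene, the CpGs within 50 kb of a start site were averaged per library and compared with limma. Of 16505 genes with at least 5 CpGs, 2594 (15.7%) were lower by at least 10 points with an adjusted p under 0.05, and none was higher. At an unadjusted p under 0.05, 25 genes had a higher and 13460 a lower level, without a limit on size. The median difference over all genes was -5.21 points, and 96.7% were negative. Both Div8pos libraries lay below both Div0 libraries at 14813 genes (89.7%). The lower genes had a median of 88.2% at Div0 and 74.5% at Div8pos. Only Gimap4 and Ndufb10 went from 60% or more to under 20% in this mean over covered CpGs. The 7 CpGs of Ndufb10 all lay at chr17:24859678-24859833, so its mean describes a short stretch and not the whole gene. The count fell to 1036 of 13227 genes when CpGs within 5 kb were used, and to 141 with a size limit of 20 points.

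Among lower genes with at least 20 CpGs, Cnp, a myelin enzyme gene, fell most. Its levels were 83.0% and 83.6% at Div0 and 47.6% and 44.1% at Div8pos, a difference of -37.4 points (SE 1.08, limma adjusted p = 3.58e-07), with 28 of its 29 CpGs lower. The lens crystallin gene Crybb1 followed at -32.5 points, then Gm14005 at -31.2 points. Neither Cnp nor Crybb1 is known as a B cell gene, and both had the groups clearly apart.

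Immune genes made up the middle of this ranking. Il10, a cytokine that regulatory B cells and plasmablasts secrete, had 71.4% and 72.2% at Div0 and 43.1% and 40.3% at Div8pos (-30.1 points, SE 1.39, limma adjusted p = 1.47e-06). Cd86 had 93.6% and 93.5%, then 66.2% and 64.5% (-28.1 points). Dusp22 changed by -27.8 points, and Tlr6, a receptor for bacterial lipopeptides, by -26.5 points. Cxcr5, which guides B cells into follicles, had 58.8% and 60.3%, then 33.9% and 33.0% (-26.1 points). Fam49b and Gpnmb, a transmembrane glycoprotein gene, changed by -26.1 and -25.7 points. Each of the 10 stayed lower with any 1 library left out.

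Genes with roles in B cells and plasma cells were lower more often than the 15.7% of all genes. The gene lists were chosen with earlier results of these data known, so their counts here and below are a description. In the plasma cell programme 13 of 32 measured genes were lower (median -9.01 points, beside -5.21 points for all genes). They included Il10, the coactivator Pou2af1 (-18.9 points, 85.6% and 89.3% to 68.0% and 69.0%), Prdm1 (-14.4 points) and Tnfrsf13b, the receptor TACI (-13.4 points). In B cell identity 11 of 28 were lower (median -7.57 points), with Cxcr5, the kinase Blk (-21.1 points), Fcrla (-20.1 points) and the tetraspanin Cd37 (-19.5 points). Genes of B cell receptor signalling counted 14 of 35 (median -7.89 points), led by the Ras activator Rasgrp3 at 83.1% and 83.2% to 57.7% and 57.7% (-25.4 points) and Fcgr2b (-19.4 points). Genes gained and genes shut down in plasma cells were thus both among those with loss.

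Antigen presentation genes were lower at 8 of 24 (median -8.21 points), with the immunoproteasome gene Psmb9 (-28.4 points), Cd86, H2-DMb2 (-18.7 points) and the protease Lgmn (-13.8 points). Chemokine and homing receptors were lower at 8 of 25 (median -7.36 points), with S1pr1, the exit receptor for lymph, at 47.9% and 44.5% to 23.5% and 21.8% (-23.5 points), and Selplg (-18.7 points). In calcium and NFAT signalling 12 of 42 were lower (median -6.60 points), among them Camk2d (-15.2 points) and the calcineurin subunit Ppp3cc (-14.9 points). Collagens and matrix genes, which B cells hardly use, counted 12 of 54 (median -7.86 points). Their median Div0 level was 71.5%, beside 50.2% for all genes.

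Counted over all measured genes, the secretory and housekeeping lists were near or under the background. In ER folding and the unfolded protein response 5 of 47 were lower (median -4.29 points), with Calr4 (-37.7 points), Man1b1 (-32.3 points) and Txndc5 (-11.5 points). In ER translocation and vesicle transport 3 of 53 were lower (median -3.17 points), with the Golgi GTPase Rab30 at 94.1% and 90.5% to 46.4% and 47.7% (-45.3 points). N-glycosylation counted 7 of 40 (median -5.95 points), with St6gal1, a sialyltransferase acting on antibodies and B cell surface proteins, at -23.8 points. In the respiratory chain 3 of 56 were lower (median -2.61 points). Ndufb10, a complex I subunit, went from 74.2% and 72.0% to 8.73% and 9.73% (-63.8 points, SE 2.49, limma adjusted p = 9.27e-07). All 7 of its CpGs were lower, and all lay in the short stretch given above. Single members could thus lose far more than their list.

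Signalling and regulator lists spread around the background. PI3K, Akt and mTOR counted 7 of 43 (median -5.14 points), with the inhibitor Pik3ip1 at 57.2% and 56.3% to 22.1% and 17.5%. Toll-like receptor and NF-kB genes counted 7 of 44 (median -6.30 points), where Tlr6, the inhibitors Nfkbie (-26.1 points) and Nfkbia (-18.9 points), and Nfkbiz (-22.2 points) fell. Lymphocyte transcription factors counted 8 of 85 (median -4.25 points), with Batf (-20.4 points), Zbtb20, Foxp1 (-12.2 points) and Irf4 (-12.1 points). In the DNA methylation machinery 3 of 30 were lower (median -5.57 points), among them the cytidine deaminase gene Apobec1. Its 5 covered CpGs, all in a short stretch (chr6:122541189-122541517), fell from 93.6% and 90.4% to 22.2% and 20.9% (-70.5 points). Jak, Stat and cytokine receptors counted 4 of 46, Notch 3 of 34, autophagy 3 of 32 and apoptosis 2 of 35, and TGF-beta and BMP 2 of 42.

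Lists of widely active or developmental genes were lowest. Cell cycle and replication counted 2 of 48 lower (median -2.87 points), and 1 without the Div8pos library of host 197. Polycomb and Trithorax counted 1 of 36 (2 without the Div8pos library of host 196), synapse and neuronal channels 3 of 68 (5 without that library), glycolysis 1 of 29 and Wnt 1 of 49 (between 2 and 3 in each of these last lists with any library left out). The lists differed in their median Div0 level, from 27.0% for cell cycle genes and 33.2% for lymphocyte transcription factors to 46.5% for synapse genes, 46.4% for B cell identity and 52.1% for the plasma cell programme. Since a low gene can fall little in points, genes with 50% or more at Div0 were also counted alone, where 29.7% of all 8274 genes were lower. There the counts were 10 of 16 for the plasma cell programme, 10 of 12 for B cell identity and 12 of 16 for B cell receptor signalling, beside 2 of 29 for synapse genes and 0 of 12 for cell cycle genes. Some lists changed sides of the background in this count. Collagens and matrix went from above it to under it, at 12 of 44 (27.3%). ER folding (4 of 12, 33.3%), lymphocyte transcription factors (6 of 19, 31.6%) and autophagy (3 of 10, 30%) went from under it to just above it. N-glycosylation, near the background before, was above it at 7 of 16 (43.8%). ER translocation and vesicle transport (3 of 12, 25%) and the respiratory chain (3 of 18, 16.7%) stayed under it.

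**Figure D5:**
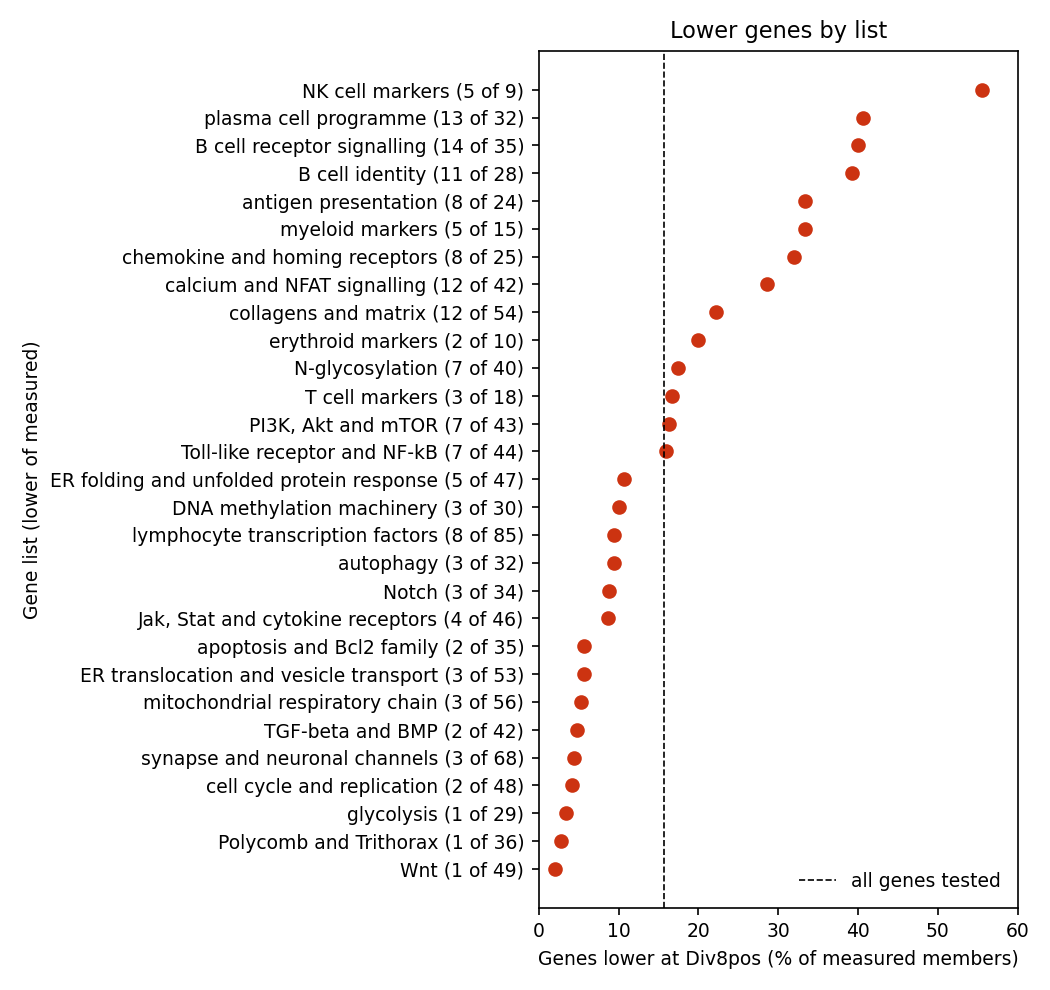
Share of measured genes in each list that were lower at Div8pos (x axis, %), with the list and its counts on the y axis and the dashed line at the 15.7% of all tested genes. The plasma cell programme (13 of 32), B cell receptor signalling (14 of 35) and B cell identity (11 of 28) lie well to the right of the line, and Wnt (1 of 49) and Polycomb and Trithorax (1 of 36) lie near 0. The lists were chosen with earlier results of these data known.

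Markers of NK and myeloid cells were lower more often than all genes (15.7%), and those of T cells and erythroid cells about as often. NK cell markers were lower at 5 of 9 measured genes (3 without the Div8pos library of host 197), with a list mean of 67.5% and 69.3% at Div0 and 58.8% and 59.3% at Div8pos, and include Il2rb (-17.4 points) and Prf1 (-12.1 points). Myeloid markers were lower at 5 of 15, with list means of 76.9% and 77.0%, then 68.2% and 68.5%, among them Itgax (-13.3 points) and Lyz2 (-13.3 points). T cell markers counted 3 of 18 (6 without the Div0 and 5 without the Div8pos library of host 196), with Cd4 at -17.5 points, and erythroid markers 2 of 10. Among genes with 50% or more at Div0, where the share of all genes was 29.7%, the counts were 5 of 6 for NK, 5 of 14 for myeloid, 3 of 15 for T cell and 2 of 7 for erythroid markers. These genes kept most of their methylation at Div8pos: Cd3e stood at 80.2% and 81.9%, and Csf1r at 85.5% and 87.8%. Whether a few cells of another lineage contributed to these levels was not tested.

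Gains were few. The 206 higher CpGs had a median of 21.2% at Div0 and 49.1% at Div8pos, and 27 of them formed 8 higher regions. The count of regions was 5 without the Div0 library of host 196, 1 without that of host 197, and 2 with edgeR. At Cd93, a receptor of immature B cells and plasma cells, 3 exonic CpGs (chr2:148267284-148267493) went from 10.9% and 10.6% to 52.4% and 44.5%, and the 1 kb tile that holds them was also higher (37.7 points, SE 3.18, limma adjusted p = 0.000139). The remaining higher tiles lay near Rnf157 (29.1 points), Gm11346 (24.8 points), Fam222a (21.3 points) and in an intergenic stretch of chromosome 9 (20.9 points).

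In the other higher regions the levels rose to between 23.5% and 71.8%. An exonic region of Egr3, an early response transcription factor, went from 25.1% and 13.8% to 51.0% and 41.7% (chr14:70479525-70479576). An intronic region of Nfatc2 (chr2:168379267-168379275) went from 46.3% and 50.2% to 75.8% and 67.8%, and one of Vps37b from 3.86% and 4.72% to 32.5% and 22.2%. Regions near Ercc6l2, Clcf1 and 2410018L13Rik had Div0 means of 22.0%, 34.2% and 15.6% and Div8pos means of 41.3%, 49.0% and 23.5%. These are means over all covered CpGs, of which 4 of 10, 3 of 6 and 4 of 20 were called higher. The 2410018L13Rik region rose by only 3.84 points in host 197. The eighth lay on the mitochondrial genome (positions 5903 to 5993), where host 196 gave 12.9% at Div0 and 67.0% at Div8pos but host 197 gave 9.06% and 5.08%, so the hosts went opposite ways.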

How the data were processed

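The deposited table gives methylated and unmethylated read counts of each CpG in 12 libraries, and a methylation fraction that equals methylated over all reads, per the file headers. The authors' reads (50 bp, single end, MspI and TaqI digestion, bisulfite conversion and PCR, per the labels' protocols) went through a workflow that is listed with Bismark, Bowtie2 and the build mm9, per the submitters' processing notes. Their versions were not given in the sources used here. Strands are joined in the table, which keeps CpGs with at least 10 reads in every sample, per the deposited read-me. Nearest genes and classes are those of the deposited annotation (promoter from 2500 bp before to 500 bp after a start site), and a class can belong to an overlapping gene.

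CpGs were fitted with quasi-binomial logistic models over the 12 libraries, with 1 dispersion for all CpGs (1.16, limma 3.58.1). Genes (CpGs within 50 kb, at least 5) and 1 kb tiles (at least 3) were tested with limma on mean levels, also over the 12 libraries. Calls needed a Benjamini-Hochberg adjusted p under 0.05 and 20 points (CpGs, tiles) or 10 points (genes). edgeR 4.0.16 was an alternative for CpGs, and the others were a host block, coverage, size limits, windows and leaving out each library. The tests were run first on simulated data. An exact permutation test of 2 against 2 libraries cannot go below a p of 0.333 (two-sided), so none is given. Replicates were 2 host animals; libraries with the same host number come from the same animal per the labels, and their deviations at Div0 and Div8pos had a correlation of 0.00263. No 2 libraries were copies: the lowest chi-square per degree of freedom of coverage was 1.35. PCR reads without molecular identifiers are not independent molecules.

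Members, lists and limits were chosen with earlier results of these data known. The text names the 12 lower regions with the lowest Div8pos level among those from 80%, the 8 genes with most lower regions, the 10 lower genes of at least 20 CpGs with the largest fall, higher regions and tiles, up to 4 lower genes per list, Sdc1, Prdm1 and Irf4, and the 5 windows with most loss. Genes tied in their number of lower regions were ranked by the lower CpGs in those regions. Promoter genes, Gimap4, Ndufb10 and CpGs by class across groups were named after their values were seen. RefSeq promoters were matched by the spacing of covered CpGs. A few genes, 1 list and 1 window that these rules pick are not reported here.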

Additional observations from a re-analysis of the deposited data

How the results depend on the processing

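The falls at CpGs, genes, tiles and regions outnumbered the rises under every alternative that called any, and counts moved with depth and size limits. Settings added after the data were seen are the alternative CpG calls for regions, complete loss, neighbours and classes, the leave-one-out values of the mean level and named regions, the lists limited to genes from 50%, and the untested levels of CpGs from 80%. With the replicate block (host as a term), 49518 CpGs were lower and 188 higher, 2594 genes and 3479 tiles were lower, and pairing changed no other call by more than 1.5 times. With each CpG's own dispersion 0 CpGs and 0 regions passed in either direction. At 20 or more reads, 20751 CpGs of 359779 were lower and 108 higher, with 735 lower and 4 higher regions and 1 higher gene. A size limit of 10 points gave 111216 lower and 630 higher CpGs, 7393 lower and 15 higher regions, and 23327 lower and 47 higher tiles; 30 points gave 17564 and 46 CpGs, 821 lower and 0 higher regions. edgeR gave 58 higher CpGs and 2 higher regions. For genes, a window of 5 kb gave 1036 lower and 2 higher, and a limit of 20 points gave 141 lower. At least 5 CpGs gave 663 lower and 0 higher tiles and 352 lower and 0 higher regions.

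Leaving out each library gave 14345 to 52522 lower and 53 to 213 higher CpGs, 2443 to 2838 lower and 0 to 1 higher genes, 3398 to 4190 lower and 7 to 17 higher tiles, and 683 to 2033 lower and 1 to 7 higher regions. The lowest CpG and region counts were those without the Div0 library of host 197. The share of complete loss was 1.71% to 6.61% in these runs, 0.837% at a limit of 10%, 2.15% at 20 or more reads, 2.30% with edgeR, 19.4% in host 196 alone and 1.98% in host 197 alone. The share of lower neighbours within 500 bp was 23.2% to 29.5% with a library left out, 24.2% in pairs over 50 bp apart, 33.6% at a size limit of 10 points and 32.5% at 30 points. The difference in mean level was -6.41 to -5.81 points with a library left out and -8.49 points by summed reads. The mitochondrial region ranged from -5.89 points without the Div8pos library of host 196, where it reversed, to 55.98 points without that of host 197. Of 1015 values for named genes under alternatives, 907 kept the call and 108 lost it (65 of them at the limit of 20 points), and none changed sign. Of 330 values for list counts 100 moved by over 1.5 times, and of 60 shares of lower CpGs by class 47 moved beyond their counting interval. The cause of these shifts was not tested. The shallowest library had a median of 20 reads per CpG.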
